A study of Mus musculus with 9 samples.

Results

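The striatum is divided into striosomes, also called patches, and the surrounding matrix, and 9 genes used to mark these compartments were followed in embryonic striatum after conditional deletion of Ebf1. Oprm1, Kremen1, Bach2, Lypd1 and Rasgrp1 were taken as striosome genes and Rasgrp2, Id4 and Calb1 as matrix genes, while Nnat was assigned to no compartment. Whether these assignments hold at the embryonic stage used cannot be read from RNA of undivided striatum. They were found by their symbols among the 44886 genes counted, and 8 of the 9 passed the filter on low counts that 16368 genes passed. Spiny projection neurons (SPN) of the direct pathway (dSPN) and of the indirect pathway (iSPN) are present in both compartments. Striosome neurons are born earlier than most matrix neurons, receive limbic input and are rich in mu opioid receptor, whereas matrix neurons receive sensorimotor and associative input and are rich in calbindin. Ebf1 encodes a helix-loop-helix transcription factor expressed in dSPN, and the study reports that its loss impairs mixing of dSPN and iSPN more in the matrix.

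RNA of striata at E17.5 was sequenced from 9 embryos. With 3 of each, their genotype is given as Control, as Islet1Cre;Ebf1fl/- (here Islet1Cre mutants) or as Dlx5/6::Cre;Ebf1fl/- (here Dlx5/6::Cre mutants). Mutants carried a floxed and a null allele of Ebf1 with the named Cre. Islet1Cre acts in dSPN and cholinergic interneurons, whereas Dlx5/6::Cre acts in all SPN and interneurons. Fathers carried a Cre and a null allele and mothers were Ebf1fl/fl, so that embryos of every genotype from these crosses inherited a floxed allele. The label of the controls gives no allele, and the methods of the study name heterozygous embryos. Strain is given as C57BL/6 in the labels, while the methods place the Islet1Cre line on B6D2F1/J.

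Levels are in CPM, the usual unit of counts relative to library size, with library sizes scaled by TMM, a normalization for library composition. Libraries held 16548083 (Islet1Cre replicate 3) to 41507049 counts on genes. Differences are log2 fold changes with their standard error (SE) from edgeR's quasi-likelihood test over all 9 libraries, and a gene was called at an adjusted p below 0.05. Ebf1 itself ranged from 264 to 470.2 CPM in controls, from 439 to 506 CPM in Islet1Cre mutants and from 391 to 506 CPM in Dlx5/6::Cre mutants. Counts over the whole gene therefore did not separate the genotypes, which are given as labelled. In the study, genotypes were identified by PCR, and immunostaining at E17.5 found no Ebf1 protein in the striatum of either mutant.

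Some libraries stood apart. All 10 markers of striatal projection neurons had counts in every library, summing to between 2154 and 3005 CPM. In Dlx5/6::Cre replicate 1, 7 progenitor markers summed to 642 CPM against 182 to 233 in the other 8, and 7 markers of pallidal, septal and interneurons to 223 CPM against 313 to 420. The 7 markers of cortical excitatory neurons summed to between 86.5 and 202 CPM in Dlx5/6::Cre mutants, 35.3 and 84.6 in controls and 33.0 and 64.9 in Islet1Cre mutants, so that Dlx5/6::Cre mutants lay above all others. Blood markers summed to 444 CPM in control 1 against 186 to 281 elsewhere. Of these lists and those of glia, microglia and vessels, only Gfap and Hbb-y were at 0 in any library. No marker gene of any list passed the test in Islet1Cre mutants, against 0.971% of all genes tested. In Dlx5/6::Cre mutants 1 passed, Foxp1, which was lower, as were 1.34% of all genes tested. The study, using DESeq, reports genes of generic SPN identity as not significantly altered in either mutant, and names Foxp1 among generic SPN markers. Control 3, with 400.2 CPM of Xist and 9.79 CPM of 4 Y-linked genes, and Islet1Cre replicate 3, with 242 and 81.4 CPM, held both kinds of transcript, although each library is labelled as 1 embryo. Of the other 7, control 2 had Y-linked counts with almost no Xist, and 6 had Xist with almost no Y-linked counts. Those 6 were control 1, Islet1Cre replicates 1 and 2 and all Dlx5/6::Cre mutants. Sex, as read from these transcripts, was thus unbalanced across the genotypes, and its part in the differences was not tested. In bulk striatum, fewer cells of a type and less RNA per cell cannot be told apart.

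Among controls, the genes were compared per kilobase of exon. Nnat was by far the most abundant, at 1510 ± 51.2 CPM per kb (SD, n = 3). Lypd1 followed at 22.5 ± 4.38, Id4 at 19.998 ± 2.82, Bach2 at 15.01 ± 3.48, Calb1 at 10.6 ± 1.95, Rasgrp1 at 9.47 ± 3.47 and Oprm1 at 5.69 ± 0.853 CPM per kb, and from Lypd1 to Oprm1 the ranges of neighbours in this order overlapped. Kremen1 lay below them at 1.67 ± 0.186 CPM per kb, and its range was apart from that of Oprm1. Rasgrp2 was listed at 0 in all 3 controls.

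The promoters of Nnat, Id4 and Oprm1 are shown because these were the genes whose levels in all 6 mutants lay above those in all 3 controls. Each line gives the 250 bases before an annotated start in RefSeq on GRCm38.p6, 5′ to 3′ on the plus strand, with CpG pairs in capitals. Nnat lies at chr2:157559828-157560077, Id4 at chr13:48260866-48261115 and Oprm1, for the last of its 3 annotated starts, at chr10:6788326-6788575.
Nnat: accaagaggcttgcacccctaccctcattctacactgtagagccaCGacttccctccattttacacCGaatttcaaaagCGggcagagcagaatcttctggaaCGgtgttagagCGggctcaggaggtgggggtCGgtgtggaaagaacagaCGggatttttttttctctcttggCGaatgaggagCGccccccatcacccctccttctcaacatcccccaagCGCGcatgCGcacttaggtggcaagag
Id4: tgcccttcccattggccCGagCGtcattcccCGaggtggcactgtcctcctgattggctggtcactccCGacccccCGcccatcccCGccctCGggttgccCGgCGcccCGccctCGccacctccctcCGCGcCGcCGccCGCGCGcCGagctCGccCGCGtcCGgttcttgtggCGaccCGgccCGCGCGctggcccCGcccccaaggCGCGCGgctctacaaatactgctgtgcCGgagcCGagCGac
Oprm1: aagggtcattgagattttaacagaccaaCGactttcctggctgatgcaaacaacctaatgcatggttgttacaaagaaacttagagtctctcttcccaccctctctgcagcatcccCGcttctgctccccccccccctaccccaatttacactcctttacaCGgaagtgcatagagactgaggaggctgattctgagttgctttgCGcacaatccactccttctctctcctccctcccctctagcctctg
These windows held 12, 35 and 4 CpG pairs, against a median of 6 over 32851 promoters. Promoters were found for 7 of the 9 genes, 12 in all. The palindromic core bound by EBF proteins, TCCCNNGGGA, was searched on both strands from 250 bases before to 50 after each start. It was in 0 of these 12 promoters, against 0.904% of all promoters, and the TATA box TATAAA was in 0 of 12, against 13.6%. At a share of 0.904%, most sets of 12 promoters would hold no EBF core, so its absence here tells little. The 12 are also not all separate, since windows of neighbouring Oprm1 starts overlap. The absence of these letters from the windows says nothing of binding elsewhere.

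**Figure D1:**
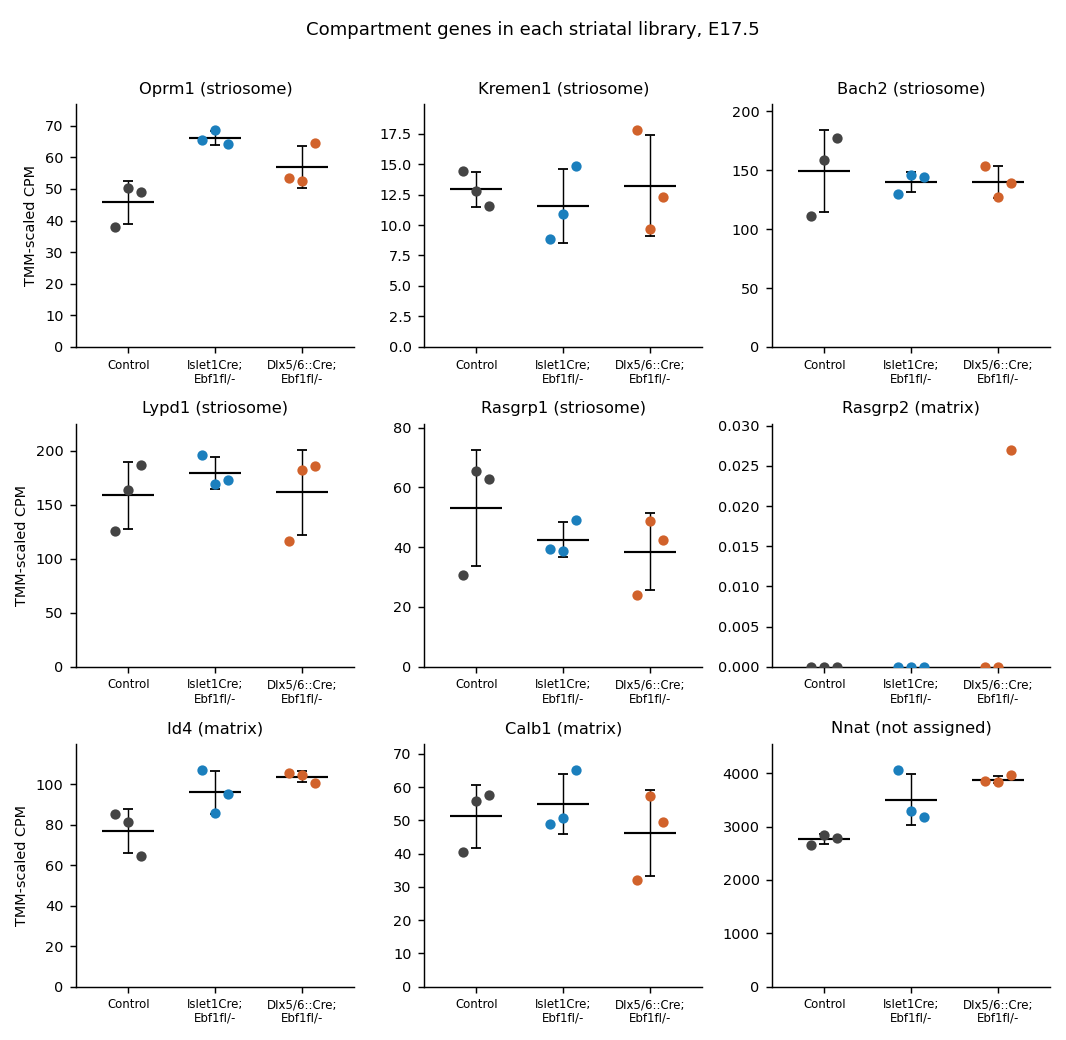
Level of each of the 9 genes by library, in TMM-scaled CPM (linear axis from 0) against genotype. Points are the 3 libraries of a genotype, horizontal lines their mean and bars the SD (n = 3). For Oprm1, Id4 and Nnat every mutant point lies above every control point. Rasgrp2 has 1 count in 1 library, and no mean is drawn.

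Of the 8 genes tested, 0 passed in Islet1Cre mutants by edgeR, against 0.971% of all genes tested, and 1, Nnat, passed in Dlx5/6::Cre mutants, against 2.39%. In each comparison 3 of the 8 had an unadjusted p below 0.05, as did 1298 and 2543 of the 16368 genes tested. DESeq2 called 2 of the 8 in each, and over all genes it called 401 and 862 where edgeR called 159 and 392. Between the mutants 0 of 8 passed by edgeR, against 0% of all genes. None of the 8 had an unadjusted p below 0.05 there, and DESeq2 called 0 of them. Between the mutants their log2 differences ran from −0.24 to 0.20. Their median log2 fold change over control was 0.14 in Islet1Cre and 0.03 in Dlx5/6::Cre mutants, against −0.0016 and 0.01 over all genes tested. The 5 striosome genes spanned −0.33 to 0.53 and −0.46 to 0.32, with medians of −0.09 and 0.03. The 2 matrix genes tested spanned 0.09 to 0.32 and −0.15 to 0.43. Both comparisons use the same 3 controls. In Islet1Cre mutants 3 of the 8 genes had every mutant above every control, against 7.76% of all genes, and 0 had every mutant below, against 7.45%. The corresponding numbers in Dlx5/6::Cre mutants were 3, against 9.71%, and 0, against 11.2%, and they were the same 3 genes. Between the mutants 0 of the 8 were without overlap, against 10.4% of all genes.

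**Figure D2:**
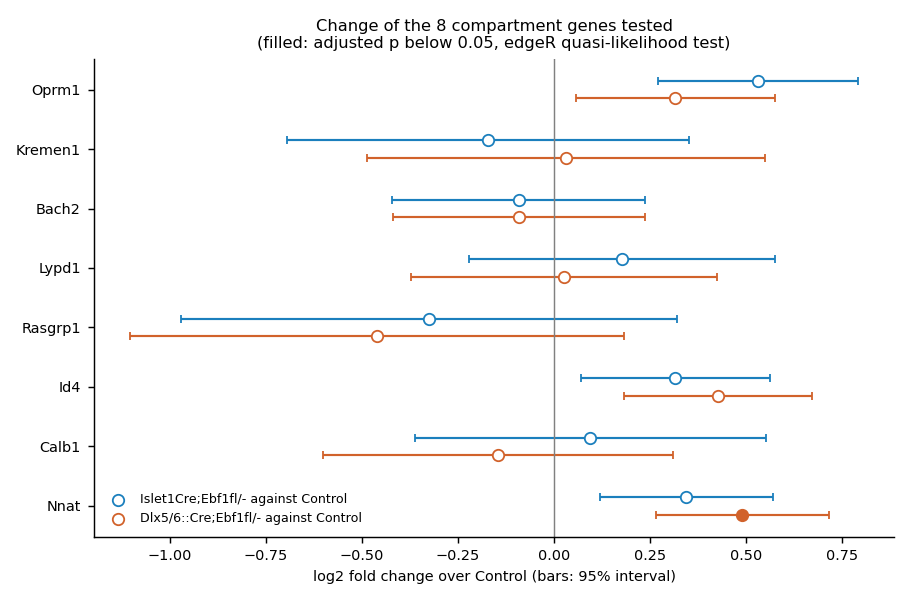
Change of the 8 genes tested, as log2 fold change over control on the horizontal axis with 95% intervals as bars, in Islet1Cre (blue) and Dlx5/6::Cre mutants (orange). The filled symbol marks Nnat in Dlx5/6::Cre mutants, the only value with an adjusted p below 0.05. Intervals of Oprm1, Id4 and Nnat lie above 0 in both comparisons.

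Nnat, or neuronatin, encodes a small proteolipid of the endoplasmic reticulum and is an imprinted gene expressed from the paternal allele. It lies within an intron of Blcap on the opposite strand, on chromosome 2 from 157560078 to 157562522. Its level was 2661, 2847 and 2778 CPM in the controls, 4061, 3284 and 3177 CPM in Islet1Cre mutants and 3848, 3833 and 3959 CPM in Dlx5/6::Cre mutants. All 6 mutants lay above all 3 controls, as did 3.68% of all genes tested. In Dlx5/6::Cre mutants Nnat rose by 0.49 on the log2 scale (SE 0.10, adjusted p = 0.0329 by edgeR), or 1.40-fold. In Islet1Cre mutants the log2 fold change was 0.34 (SE 0.10, adjusted p = 0.233 by edgeR), and between the mutants it was 0.15 (95% interval −0.08 to 0.37, adjusted p = 0.868 by edgeR).

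The cortical markers named above lay higher in the same mutants, and their part in this difference was not tested. The call in Dlx5/6::Cre mutants was sensitive to single libraries, while the log2 fold change stayed between 0.46 and 0.51. By edgeR, its adjusted p was 0.126, 0.0921 and 0.108 without control 1, 2 or 3, 0.0877 and 0.103 without Dlx5/6::Cre replicate 2 or 3, and 0.0505 without Islet1Cre replicate 3. Without Dlx5/6::Cre replicate 1, the library rich in progenitor markers, it was 0.0316. It was 0.0648 without both that library and control 1, and 0.167 without the 2 libraries that held Xist and Y-linked transcripts. Embryo codes in the labels begin with IE for 2 controls and all Islet1Cre mutants and with D for control 3 and all Dlx5/6::Cre mutants. Within a prefix the log2 fold change was 0.48 in Dlx5/6::Cre mutants, resting on 1 control (adjusted p = 0.418 by edgeR).

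Blcap, the host gene, was at 159, 174 and 178 CPM in controls, 226, 194 and 196 CPM in Islet1Cre mutants and 187, 218 and 224 CPM in Dlx5/6::Cre mutants. Its mutants also lay above its controls, but by edgeR neither log2 fold change passed, at 0.27 (adjusted p = 0.362) and 0.30 (adjusted p = 0.149). The exons of Nnat and Blcap share 0 bases.

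Oprm1 encodes the mu opioid receptor, an inhibitory G protein-coupled receptor for enkephalins and endorphin and the classical marker of striosomes. It lies on chromosome 10 from 6758506 to 7038198. Its level was 37.9, 50.3 and 49.1 CPM in controls, 65.6, 68.5 and 64.2 CPM in Islet1Cre mutants and 53.5, 52.6 and 64.7 CPM in Dlx5/6::Cre mutants. Again the mutants and the controls did not overlap, with control 1 the lowest library. The log2 fold change was 0.53 in Islet1Cre mutants (SE 0.12, adjusted p = 0.0778 by edgeR), or 1.44-fold, and 0.32 in Dlx5/6::Cre mutants (SE 0.12, adjusted p = 0.226 by edgeR). Neither passed. The first passed without Dlx5/6::Cre replicate 1 (adjusted p = 0.0355 by edgeR), with only the 6 libraries compared (0.0442), when no genes were filtered out (0.0134) and with DESeq2 (0.00422). Within the IE prefix it was 0.58 and did not pass (adjusted p = 0.156 by edgeR).

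Id4 encodes a helix-loop-helix protein without a DNA-binding region, which binds E proteins and other such factors and keeps them from DNA. It lies on chromosome 13 from 48261228 to 48266026. Its level was 85.0, 81.3 and 64.6 CPM in controls, 107, 85.5 and 95.2 CPM in Islet1Cre mutants and 106, 105 and 100.5 CPM in Dlx5/6::Cre mutants. The lowest mutant, Islet1Cre replicate 2, and the highest control lay within 1 CPM of each other, and the Dlx5/6::Cre mutants were tightly grouped. The log2 fold change was 0.32 in Islet1Cre mutants (SE 0.11, adjusted p = 0.369 by edgeR) and 0.43 in Dlx5/6::Cre mutants (SE 0.11, adjusted p = 0.0817 by edgeR), or 1.34-fold. The latter passed when no genes were filtered out (adjusted p = 0.0201 by edgeR) and with DESeq2 (0.0153), and in 0 of the 9 fits that left out 1 library.

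**Figure D3:**
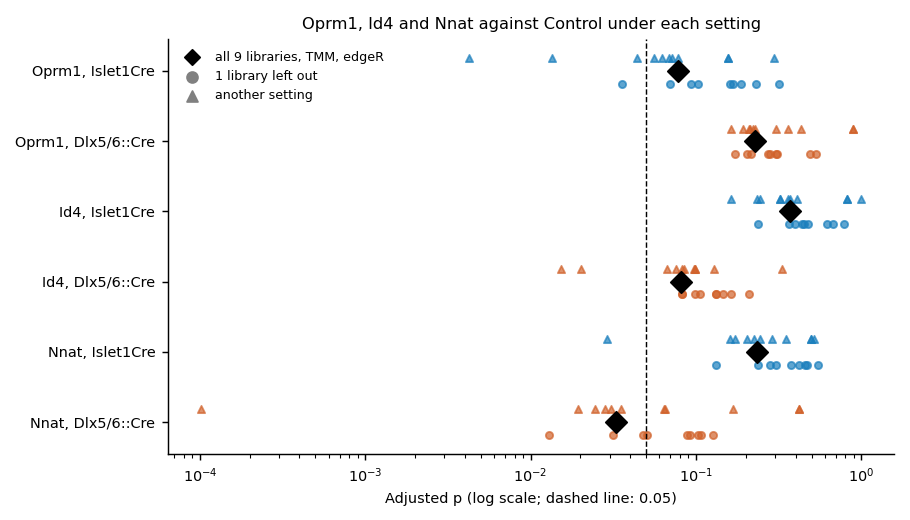
Adjusted p of Oprm1, Id4 and Nnat in each comparison with controls, on a log axis with the threshold of 0.05 dashed. Diamonds are the edgeR fit of all 9 libraries, circles fits with 1 library left out and triangles other settings. For Nnat in Dlx5/6::Cre mutants 3 of 9 circles pass, for Oprm1 in Islet1Cre mutants 1 of 9, and for Id4 0 of 9.

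Rasgrp1 and Rasgrp2 encode guanine nucleotide exchange factors that respond to calcium and diacylglycerol, the former acting mainly on Ras and the latter mainly on Rap. Rasgrp1, on chromosome 2 from 117279993 to 117343001, was at 30.6, 65.6 and 62.8 CPM in controls, 39.5, 38.6 and 49.2 CPM in Islet1Cre mutants and 24.1, 48.8 and 42.6 CPM in Dlx5/6::Cre mutants. Control 1 and Dlx5/6::Cre replicate 1, both named above for their markers, were the lowest libraries. Every other mutant lay between control 1 and the other 2 controls. Rasgrp1 did not pass in either comparison, with log2 fold changes of −0.33 (95% interval −0.97 to 0.32) and −0.46 (−1.10 to 0.18), at adjusted p of 0.972 and 0.479 by edgeR. Without those 2 libraries, a choice made after seeing the data, it was −0.60 in Islet1Cre mutants, which passed (adjusted p = 0.0253 by edgeR), and −0.49 in Dlx5/6::Cre mutants, which did not (adjusted p = 0.0649). The part of the blood and progenitor markers in this difference was not tested.

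Rasgrp2, on chromosome 19 from 6399340 to 6415216, had 1 count over the 9 libraries, in Dlx5/6::Cre replicate 3, and was not tested. Its level could not be read as low expression, because its neighbours were empty too. It lies in a run of 13 protein-coding genes on chromosome 19, from 6184388 to 6544169, that together had 4 counts over all libraries. The run includes Sf1, a splicing factor gene, Men1, a chromatin regulator gene, Atg2a, an autophagy gene, and Nrxn2, a neurexin gene, all at 0 to 2 counts. Genes on either side were counted, with 196 counts for Batf2 and 4584 for Rps6ka4. Of the 75-base windows in Rasgrp2 transcripts, 1.74% also occur in transcripts of another gene. The cause was not tested, and no comparison of this matrix gene was possible.

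**Figure D4:**
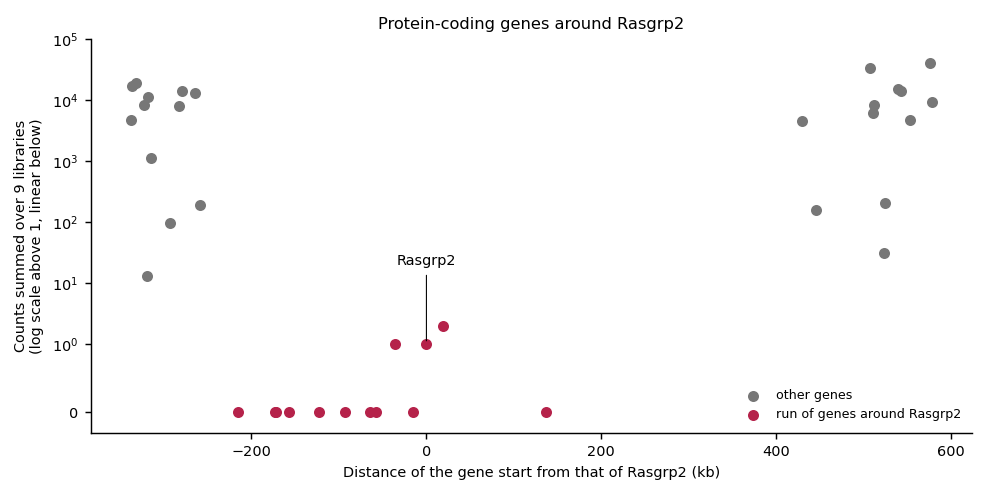
Counts summed over the 9 libraries for protein-coding genes around Rasgrp2 (vertical axis, logarithmic above 1 and linear below), by the distance of their start from that of Rasgrp2 in kb. The 13 genes of the run, in red, have 0 to 2 counts each, while the genes on both sides, in grey, are counted.

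Calb1 encodes calbindin, a cytosolic calcium buffer of matrix neurons, and lies on chromosome 4 from 15881264 to 15908064. Its level was 40.4, 55.8 and 57.6 CPM in controls, 48.8, 50.6 and 65.2 CPM in Islet1Cre mutants and 32.0, 57.3 and 49.6 CPM in Dlx5/6::Cre mutants. The genotypes overlapped, and Dlx5/6::Cre replicate 1 was again the lowest library. The log2 fold changes were 0.09 (95% interval −0.36 to 0.55) and −0.15 (−0.60 to 0.31), at adjusted p of 0.999 and 0.778 by edgeR.

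Bach2 encodes a transcriptional repressor that pairs with small Maf proteins and lies on chromosome 4 from 32238804 to 32586108. Its level was 111, 159 and 178 CPM in controls, 130, 146 and 145 CPM in Islet1Cre mutants and 154, 127 and 139 CPM in Dlx5/6::Cre mutants. All mutants lay inside the range of the controls, which control 1 widened. The log2 fold change was −0.09 in both comparisons, with 95% intervals of −0.42 to 0.24 (adjusted p = 0.999 and 0.815 by edgeR).

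Kremen1, on chromosome 11 from 5191552 to 5261558, encodes a membrane receptor for Dickkopf proteins that dampens Wnt signalling. It was the lowest of the genes tested, at 14.4, 12.8 and 11.6 CPM in controls, 8.84, 10.9 and 14.8 CPM in Islet1Cre mutants and 17.8, 9.66 and 12.3 CPM in Dlx5/6::Cre mutants. Each mutant genotype had libraries above and below the controls. The log2 fold changes were −0.17 (95% interval −0.69 to 0.35) and 0.03 (−0.49 to 0.55), at adjusted p of 0.999 and 0.967 by edgeR.

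Lypd1, on chromosome 1 from 125867622 to 125913101, encodes a membrane-anchored protein of the Ly6 family, which includes modulators of nicotinic acetylcholine receptors. It was at 126, 163 and 187 CPM in controls, 196, 169 and 173 CPM in Islet1Cre mutants and 116, 182 and 186 CPM in Dlx5/6::Cre mutants. The genotypes overlapped. The log2 fold changes were 0.18 (95% interval −0.22 to 0.58) and 0.03 (−0.37 to 0.42), at adjusted p of 0.992 and 0.964 by edgeR. Lypd1 shares 1202 exonic bases with Gpr39 on the other strand, and 16.3% of the 75-base windows in its transcripts occur in another gene. For the other genes that share was at most 3.99%.

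Among 41 further genes of the families and partners of the 9, of which 37 passed the filter, 1 was higher and 0 were lower in Islet1Cre mutants, and 2 were higher and 0 lower in Dlx5/6::Cre mutants. For all genes tested, 0.47% were higher and 0.501% lower in the first comparison, and 1.05% and 1.34% in the second. The genes that passed were relatives of Lypd1. Lypd6b, on chromosome 2 from 49787688 to 49948849, was at 1.83, 2.92 and 2.93 CPM in controls, 8.16, 7.84 and 5.11 CPM in Islet1Cre mutants and 8.11, 8.73 and 9.56 CPM in Dlx5/6::Cre mutants. Every mutant library lay above every control, with Islet1Cre replicate 3 the nearest to them. Lypd6b rose by 1.46 (SE 0.24, adjusted p = 0.0213 by edgeR) and 1.78 (SE 0.24, adjusted p = 0.00425) on the log2 scale. Lypd6, on the same strand of chromosome 2 from 50066429 to 50193569, was at 3.94, 3.13 and 2.39 CPM in controls, 5.79, 6.19 and 5.05 CPM in Islet1Cre mutants and 7.71, 6.91 and 7.89 CPM in Dlx5/6::Cre mutants. Lypd6, described as an enhancer of nicotinic receptor responses and of Wnt signalling, rose in Dlx5/6::Cre mutants by 1.25 on the log2 scale (SE 0.20, adjusted p = 0.0106 by edgeR). Its log2 fold change of 0.85 in Islet1Cre mutants did not pass (SE 0.20, adjusted p = 0.101 by edgeR), but it did without Dlx5/6::Cre replicate 1 (0.0426), without that library and control 1 (0.0219) and with DESeq2 (0.00511).

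The Lypd6b and Lypd6 calls in Dlx5/6::Cre mutants held in each of the 9 fits that left out 1 library, while that of Lypd6b in Islet1Cre mutants was lost in 5, with adjusted p values up to 0.128 by edgeR without Islet1Cre replicate 2. It was also lost without control 1, 2 or 3 and without Islet1Cre replicate 1. Without the 2 libraries that held Xist and Y-linked transcripts, Lypd6b kept both calls (adjusted p = 0.0462 and 0.0138 by edgeR) and Lypd6 lost its call (0.0660). Within a prefix the Lypd6b calls were lost by edgeR, at 1.57 (adjusted p = 0.0553) and 1.58 (0.164), as was that of Lypd6, at 1.65 (0.0658). The Ly6 genes Lynx1, Ly6h and Ly6e did not pass in either comparison. Over the 5 Ly6 genes other than Lypd1, the median log2 fold change was 0.47 in Islet1Cre and 0.53 in Dlx5/6::Cre mutants. The lowest were −0.0031 and −0.053.

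**Figure D5:**
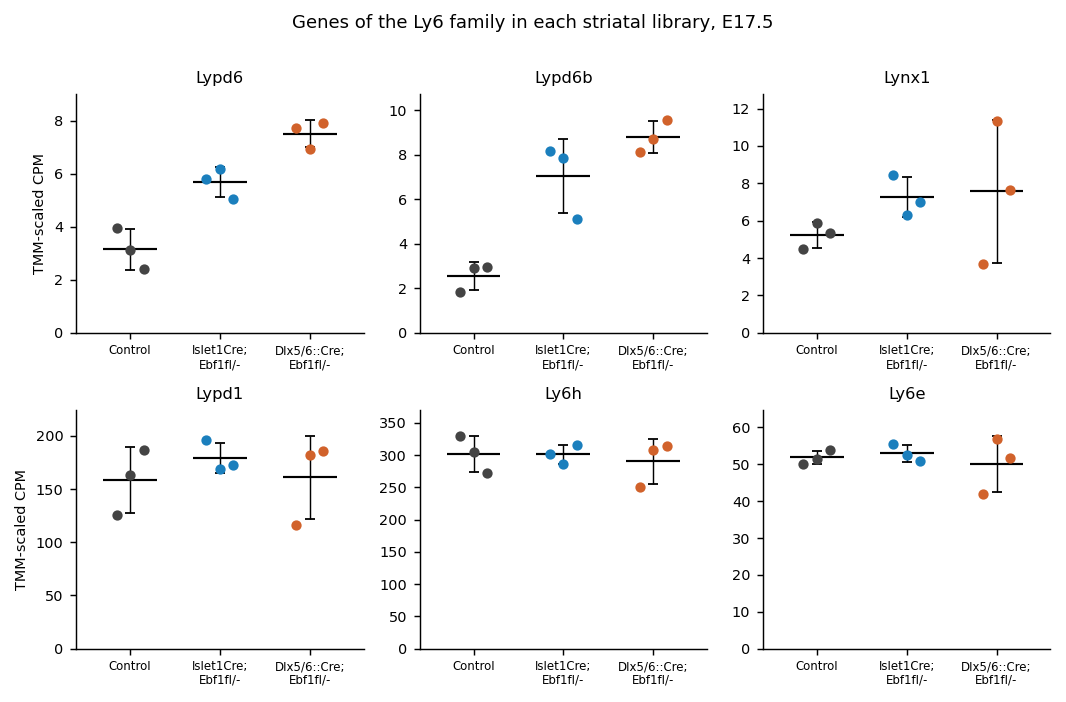
Level of 6 genes of the Ly6 family by library, in TMM-scaled CPM (linear axis from 0) against genotype, with points for libraries, lines for the mean and bars for the SD (n = 3). For Lypd6 and Lypd6b all 6 mutant libraries lie above the 3 controls, while for Lypd1, Ly6h and Ly6e the genotypes overlap.

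No other family gene passed in these comparisons by edgeR. For the 7 opioid peptide and receptor genes other than Oprm1, log2 fold changes ran from −0.55 to 0.50 in Islet1Cre mutants and from −0.77 to 0.99 in Dlx5/6::Cre mutants. They include Oprd1, the delta receptor gene, at 0.25 and 0.08 (adjusted p = 0.991 and 0.918 by edgeR), and Oprk1, the kappa receptor gene, at −0.07 and −0.23 (adjusted p = 0.999 and 0.829). Of 7 partners of Kremen1 in Wnt signalling, 5 were tested. Kremen2, its paralog, had 3.64, 2.46 and 2.42 CPM in controls, 1.79, 1.501 and 1.78 CPM in Islet1Cre mutants and 1.79, 1.45 and 1.48 CPM in Dlx5/6::Cre mutants. All its mutants lay below its controls, as did 4.1% of all genes tested, but by edgeR neither log2 fold change passed, at −0.75 (adjusted p = 0.279) and −0.85 (adjusted p = 0.101).

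Among 8 further Rasgrp, Ras and Rap genes, log2 fold changes stayed between −0.06 and 0.24 in Islet1Cre mutants and between −0.37 and 0.03 in Dlx5/6::Cre mutants, including Rasgrp3 at 0.08 and −0.29 (adjusted p = 0.999 and 0.492 by edgeR). The 10 genes of Id, E protein, Bach and small Maf factors ran from −0.55 to 0.23 and from −0.29 to 0.59. Of the calcium-binding genes Calb2, Pvalb and S100g, Calb2 alone passed the filter, and it was not called. Its log2 fold changes were 0.68 and 0.66, each with an unadjusted p below 0.05 by edgeR, as had 1298 and 2543 of the 16368 genes tested.

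The 10 other genes taken as striosome-enriched were Tac1, Pdyn, Sema5b, Nr4a1, Asic4, Ppp1r1b, Foxp2, Isl1, Tshz1 and Drd1. The study counts Drd1, Foxp2, Isl1 and Pdyn among dSPN genes, so this list does not stand for striosomes alone. Of these 10 genes, 0 passed in either comparison by edgeR. An unadjusted p below 0.05 was found for 2 and 6 of the 10 genes, against the 1298 and 2543 of all 16368 genes given above. Their log2 fold changes were above 0 for 2 of 10 in Dlx5/6::Cre mutants, with a median of −0.29, and for 5 of 10 in Islet1Cre mutants, with a median of 0.015, while over all genes tested 8559 and 8109 were above 0. Tac1, the substance P precursor, was at 81.8, 113 and 196 CPM in controls, 77.4, 75.7 and 118 CPM in Islet1Cre mutants and 48.8, 61.9 and 69.0 CPM in Dlx5/6::Cre mutants. Its level in Dlx5/6::Cre mutants lay below all other libraries, at a log2 fold change of −1.12 (SE 0.29, adjusted p = 0.0776 by edgeR). It passed in 6 of 11 other settings, with adjusted p values from 0.00159 when no genes were filtered out to 0.149, and in 1 of the 9 fits that left out 1 library, that without control 1 (0.0493). Within the D prefix it was −1.71 and rested on 1 control, and without control 3 it was −0.70 (adjusted p = 0.207 by edgeR). Among the 11 settings, the prefix as a covariate and the fit within a prefix are the same by construction. The pairs of libraries left out were added after seeing the data. Pdyn, the dynorphin precursor and also one of the opioid genes above, was at −0.55 (adjusted p = 0.747) and −0.77 (0.232) by edgeR, and Ppp1r1b, which encodes DARPP-32, at 0.17 (0.978) and −0.17 (0.658).

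Of 6 other matrix genes, Zfp521, a zinc finger gene, fell in both comparisons, by 1.28 and 2.15 on the log2 scale (adjusted p = 0.0110 and 6.1e-04 by edgeR). The others, which include Ebf1 itself, were not called. The study counts Zfp521 among dSPN genes deregulated in both mutants and proposes it as a likely direct target of Ebf1. The call of Zfp521 in Islet1Cre mutants was lost in 1 of the 9 fits that left out 1 library, that without Islet1Cre replicate 2 (−1.22, adjusted p = 0.0774 by edgeR). Epha4, an ephrin receptor gene of the matrix, was at 280.1, 378 and 349 CPM in controls, 398, 408 and 396 CPM in Islet1Cre mutants and 373, 405 and 440.0 CPM in Dlx5/6::Cre mutants. The Islet1Cre mutants lay above all 3 controls, whereas the Dlx5/6::Cre mutants overlapped control 2, and its log2 fold changes were 0.25 and 0.27 (adjusted p = 0.573 and 0.255 by edgeR). Of the 16 genes of these 2 further lists, Zfp521 was thus the only one called.

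For each gene, the genes whose log2 CPM followed it most closely over the 9 libraries were sought among 10068 genes with a mean of at least 10 CPM. All points share library, depth and scaling, and the values are a description. Oprm1 was followed by Dlgap2 (r = 0.98) and Trim26 (r = 0.97), Nnat by Abcg1 (r = 0.98) and Igfbp4 (r = 0.97), and Id4 by Sh3bgrl2 (r = 0.96) and Epb41l4aos (r = 0.95). Calb1 was followed by Rgs7bp (r = 0.97) and Th (r = 0.96), and Rasgrp1 by Wdr47 and Snx24 (r = 0.96 each). The closest to Bach2 were Ptk2 (r = 0.93) and Sh3kbp1 (r = 0.91), to Lypd1 Uap1 (r = 0.99) and Rnmt (r = 0.98), and to Kremen1 Gm43517 (r = 0.92). None of these was one of the 9 genes.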

How the data were processed

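Striatal RNA of 9 embryos at E17.5 was analysed, with genotype and replicate number from the sample labels. The deposited values are raw counts of reads for each Ensembl gene, which the authors had not scaled. Per the labels and the methods, libraries were made with a stranded mRNA kit, mapped to mm10 with STAR 2.4.0k, stripped of reads matching several positions, which lowers genes with near-identical copies, and counted with HTSeq 0.5.3. The strand setting is not given in the sources used here, so genes sharing exonic bases with one on the other strand are uncertain. Gene names came from GENCODE M21, which held 44133 of the 44886 identifiers, and promoters from RefSeq.

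Here the 9 libraries entered 1 fit of edgeR 4.0.16 (R 4.3.3) with a term for genotype, TMM scaling, filterByExpr with a minimum count of 10, the quasi-likelihood test and Benjamini-Hochberg adjustment over 16368 genes. No pair of libraries of a genotype agreed within sampling noise. Alternatives were DESeq2 1.42.0, other size factors and filters, the 6 libraries compared, the prefix in the embryo codes, the replicate number as a block, each library left out and, added after seeing the data, 2 pairs of libraries left out. Simulated counts were used to test the fit. The 9 genes and all lists were chosen with earlier results of these data known. Genes named were the 9, those of the family and compartment lists that passed a comparison with controls, 10 fixed genes, and for each of the 9 the 2 genes with the highest Pearson r, of which 1 is not reported here. With 3 embryos a genotype, low genes are least precise in the smallest library, Islet1Cre replicate 3.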

Additional observations from a re-analysis of the deposited data

How the results depend on the processing

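The number of genes called moved with the fit. In Islet1Cre mutants it was 159, and 311 with no filter on low counts, 259 with only the 6 libraries compared, 61 with the embryo codes' prefix as a covariate or within a prefix, which are the same fit by construction, 290 without control 1 and Dlx5/6::Cre replicate 1, 52 without control 3 and Islet1Cre replicate 3, 401 with DESeq2, and 15 to 397 with 1 library left out. In Dlx5/6::Cre mutants it was 392, and in the same order 708, 181, 32, not moved by over 1.5 times, 138, 862, and 143 to 613. Between the mutants it was 0, with 844 genes at an unadjusted p below 0.05, and 13 with no filter, 2 with 6 libraries, 1 with the prefix, 3 without either pair of libraries, 18 with DESeq2 and 0 to 4 with 1 left out.

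Of the compartment genes, 0 were called in Islet1Cre mutants, but 1 with no filter or 6 libraries (Oprm1) and without control 1 and Dlx5/6::Cre replicate 1 (Rasgrp1), 2 with DESeq2 (Oprm1 and Nnat), and 0 to 1 with 1 library left out. In Dlx5/6::Cre mutants 1 was called, but 2 with no filter or DESeq2 (Nnat and Id4), 0 with the prefix, the replicate block or either pair of libraries left out, and 0 to 1 with 1 left out. Deviations of same-numbered libraries had correlations of −0.23 to 0.18. Between controls and Dlx5/6::Cre mutants they were 0.18, 0.08 and 0.17, above the −0.18 to 0.04 of libraries with unequal numbers. Between Islet1Cre mutants and either other genotype they ran from −0.23 to −0.04. The main fit did not take the numbers as pairs. With the replicate block, 143 genes were called in Islet1Cre and 363 in Dlx5/6::Cre mutants and 0 between them, and the adjusted p of Nnat was 0.0638.

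Reversed signs were confined, among the results and settings run, to genes that were not called. In Islet1Cre mutants Bach2 was 0.053 with the prefix and 0.038 without control 3 and Islet1Cre replicate 3 (−0.27 to 0.059 with 1 library left out), Calb1 was −0.053 without control 1 and Dlx5/6::Cre replicate 1 (−0.051 to 0.19), and Oprk1 was 0.47 with the prefix, 0.040 with the replicate block and 0.47 without control 3 and Islet1Cre replicate 3 (−0.40 to 0.48). In Dlx5/6::Cre mutants Kremen1 was −0.15 and −0.047 without the first and the second pair of libraries (−0.24 to 0.21), Bach2 0.051 without the second pair (−0.27 to 0.051), Lypd1 −0.21 with the prefix (−0.12 to 0.21), Oprd1 −0.31 with the prefix (−0.17 to 0.32), Oprk1 0.31 without the second pair (−0.56 to 0.31) and Calb1 −0.33 to 0.060 with 1 left out. Between the mutants Bach2, at 0.00047, was −0.0011 with DESeq2's size factors, −0.0063 with upper-quartile factors, −0.0064 with no filter, −0.0017 with a stricter filter, −0.40 with the prefix, −0.0074 with 6 libraries, −0.073 without the first pair and −0.00098 with DESeq2 (−0.072 to 0.066 with 1 left out). Without the first pair, Kremen1 was −0.059 (−0.061 to 0.41), Lypd1 0.037 (−0.28 to 0.037) and Rasgrp1 0.11 (−0.34 to 0.11). The cause of these changes was not tested.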
